A study of Homo sapiens with 24 samples.

Results

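Adding overexpression of miR-125b (OE) to its knockdown (KD) was examined in retinoic acid (RA) treated SH-SY5Y cells, an established line from a human neuroblastoma that takes on neuronal features under RA. The comparison holds 6 of the 24 Illumina arrays of the series, chosen by their titles: 3 arrays of cells with RA and both OE and KD on day 2, and 3 arrays of cells with RA and KD alone on day 2. By the titles, RA and KD were thus present on both sides and OE on 1 side only. The other RA groups of day 2, a scrambled control and OE alone, gave the OE effect without KD, and scrambled and OE cells without RA on day 2 and day 4 gave it without RA, with 3 arrays in each group. The titles write OE, which is read here as overexpression. In the source names DP stands there instead, an abbreviation the labels do not explain, and they name mir125b as the KD target in the KD arrays but mir125 in the OE+KD arrays, so the labels do not show that the KD reagent was the same in both groups. The labels' growth text concerns reagents that the titles do not name. The sources used here therefore do not say how OE and KD were delivered, what the RA dose was or whether the 3 arrays of a group came from separate cultures. All p-values measure the spread between these arrays, which may be technical.

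miR-125b is a microRNA, a short RNA that guides the Argonaute protein to messenger RNAs and lowers their stability or translation. Recognition rests mainly on the seed, bases 2 to 8 of the mature strand, pairing with sites that lie mostly in 3′ untranslated regions. An overexpressed microRNA is therefore known to lower its direct targets, and further changes follow through them. miR-125b is expressed in the nervous system and is known for promoting neuronal differentiation. Retinoic acid acts through nuclear receptors and is a classical differentiating agent for neuroblastoma cells. The mature sequence is shown because both reagents are labelled for this microRNA, with the other mature human microRNAs of the same seed for comparison (RefSeq, GRCh38.p14, 5′ to 3′, seed in capitals).
hsa-miR-125b-5p: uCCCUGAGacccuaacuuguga
hsa-miR-125a-5p: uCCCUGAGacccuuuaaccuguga
hsa-miR-4319: uCCCUGAGcaaagccac
miR-125b-5p is encoded by 2 genes, MIR125B1 at chr11:122099809-122099830 on the minus strand and MIR125B2 at chr21:16590253-16590274 on the plus strand. No miR-125b level was analysed here, and what OE and KD did to it is unknown. The tables used here carry Illumina probe IDs and do not pair them with genes. Each probe was therefore tested on its own, no gene is named, the cell line was not checked against marker genes, and no target site could be looked for.

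Mean scanner intensity ran from 680.5 to 832.5 on the KD arrays and from 617.8 to 796.4 on the OE+KD arrays, within the 617.8 to 1134.2 of the whole series. Replicates correlated across the tested probes with r of 0.994 to 0.996 in KD and 0.993 to 0.996 in OE+KD. The scatter around the group means was 0.098 to 0.122 log2 (residual SD) on the KD arrays and 0.094 to 0.123 on the OE+KD arrays. It was highest in the series, at 0.226, on replicate 2 of OE with RA, an array that enters only the comparisons with OE alone and the shared estimate of the spread. Precision is limited throughout by the small number of arrays.

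With KD present on both sides, 384 of the 10691 tested probes were higher after OE and 560 were lower. The 944 called probes (limma, adjusted p under 0.05) were 8.83% of those tested, 3.59% higher and 5.24% lower. Most changes were small, with a median size among called probes of 0.40 log2, or 1.32-fold, and at least 2-fold changes at 5 raised and 6 lowered probes. The 3 OE+KD arrays did not overlap the 3 KD arrays at 929 of the called probes, against 2886 (27.0%) of all tested probes. Called probes were spread over all levels of intensity. With the tested probes cut into 4 bins of equal size by mean level, 5.91% of the dimmest bin were called, 10.3% and 11.3% of the middle bins, and 7.89% of the brightest bin. With each array scaled to a common median the count was 537, of which 25.7% were higher in place of 40.7%. It was 577 without replicate 3 of KD, and 1315 when replicate 2 of OE with RA was left out of the shared estimate of the spread.

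ILMN_6588 led the raised probes in the normexp-corrected values. Its normalized intensity was 11.66, 11.67 and 11.59 log2 on the KD arrays and 13.05, 12.85 and 12.76 on the OE+KD arrays. Every OE+KD array lay above every KD array, and the rise was 1.25 log2 (2.37-fold, SE 0.086, limma adjusted p = 1.38e-09). The same probe rose by 2.76 log2 with OE alone against scrambled with RA and by 2.63 without RA on day 2. Its 2 RA increments differed by -1.52 log2 (95% interval -1.77 to -1.27, limma adjusted p = 9.29e-09), so OE added less to ILMN_6588 on top of KD than on top of scrambled.

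ILMN_13393 led the lowered probes in the normexp-corrected values. It stood at 10.43, 10.72 and 10.73 log2 on the KD arrays and at 9.26, 9.20 and 9.05 on the OE+KD arrays, with no overlap, and OE+KD minus KD was -1.45 log2 (2.74-fold, SE 0.124, limma adjusted p = 2.46e-08). Its fall with OE alone was 1.80 log2 units (OE minus scrambled -1.80), from 9.90, 9.84 and 9.91 on the scrambled arrays to 8.30, 7.65 and 8.30 on the OE arrays. The difference between the 2 OE effects was 0.35 log2 (95% interval -0.02 to 0.71, limma adjusted p = 0.200) and was not called. KD arrays held the highest and OE arrays the lowest values of ILMN_13393 in the 4 RA groups.

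Further probes lowered strongly by OE alone also fell on top of KD, by less. ILMN_21370 stood at 9.12, 9.16 and 9.33 log2 with KD and at 8.38, 8.46 and 8.37 with OE+KD, a fall of 0.80 (OE+KD minus KD -0.80, SE 0.087, limma adjusted p = 8.33e-07). OE alone had lowered it further with RA (OE minus scrambled -2.58 log2), and the 2 effects differed by 1.78 (95% interval 1.53 to 2.04, limma adjusted p = 4.32e-10). KD alone also lowered ILMN_21370, from 10.11, 10.06 and 10.19 log2 in scrambled (KD minus scrambled -0.92, limma adjusted p = 2.53e-08). ILMN_5708 stood at 11.14, 10.92 and 10.84 log2 with KD and at 9.88, 10.09 and 10.44 with OE+KD, where the 3 arrays were more spread than those of the other RA groups but stayed below every KD array. It fell with OE on top of KD (-0.84 log2, SE 0.103, limma adjusted p = 4.67e-06) and more with OE alone (-1.89 log2), a difference of 1.06 (limma adjusted p = 1.83e-05). KD minus scrambled was 0.29 log2 at ILMN_5708 and was not called (limma adjusted p = 0.0533).

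At other probes OE had an effect on top of KD and, with RA, little or none without it. ILMN_9994 stood at 10.16, 10.12 and 10.07 log2 on the KD arrays and at 11.38, 11.20 and 11.23 on the OE+KD arrays, a rise of 1.16 (2.23-fold, SE 0.084, limma adjusted p = 2.05e-09). On the scrambled arrays it stood at 11.24, 11.25 and 11.24 and on the OE arrays at 11.16, 11.14 and 10.98. The KD arrays thus stood apart from the other 3 groups, and OE minus scrambled was -0.15 log2 (limma adjusted p = 0.158). Without RA on day 2 OE did raise ILMN_9994, by 0.34 log2 without overlap of the arrays (limma adjusted p = 0.00288). On day 4 without RA the change of 0.11 log2 was not called (limma adjusted p = 0.268). The OE effect on ILMN_9994 differed with and without KD by 1.31 log2 (95% interval 1.06 to 1.55, limma adjusted p = 3.55e-08).

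ILMN_27261 followed the same course. Of the 91 probes called in OE+KD against KD whose adjusted p for OE alone with RA was over 0.5, it had the largest change among those with no overlap between the arrays, and it was chosen for this contrast. It stood at 11.08, 10.89 and 10.91 log2 with KD and at 12.09, 11.81 and 11.77 with OE+KD, a rise of 0.93 (SE 0.142, limma adjusted p = 8.67e-05). The scrambled arrays lay at 11.75, 11.65 and 11.71 and the OE arrays at 12.04, 11.33 and 12 log2, the lowest of these being replicate 2. The OE effects with and without KD differed by 0.85 log2, a difference that the choice of the probe largely fixed and that is given as a description.

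ILMN_17040 fell on top of KD and, by less, with OE alone. It stood at 8.09, 7.78 and 8.07 log2 with KD and at 6.69, 6.82 and 6.87 with OE+KD, close to the low end of the arrays. Its change was -1.19 log2 (SE 0.114, limma adjusted p = 1.68e-07), and the size depends on the background correction: it was -2.34 log2 without that correction and -2.21 in the authors' normalized intensities. In both of these it fell more than ILMN_13393, which stood at -1.59 and -1.63, so the order of these probes turns with the background correction. The scrambled arrays lay at 7, 6.85 and 7.06 and the OE arrays at 6.39, 6.30 and 6.51. KD arrays thus stood above and OE arrays below all others with RA. OE alone lowered ILMN_17040 with RA by less (-0.57 log2, limma adjusted p = 0.000292). No OE effect on it was called without RA on day 2 (0.12 log2, limma adjusted p = 0.464).

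**Figure D1:**
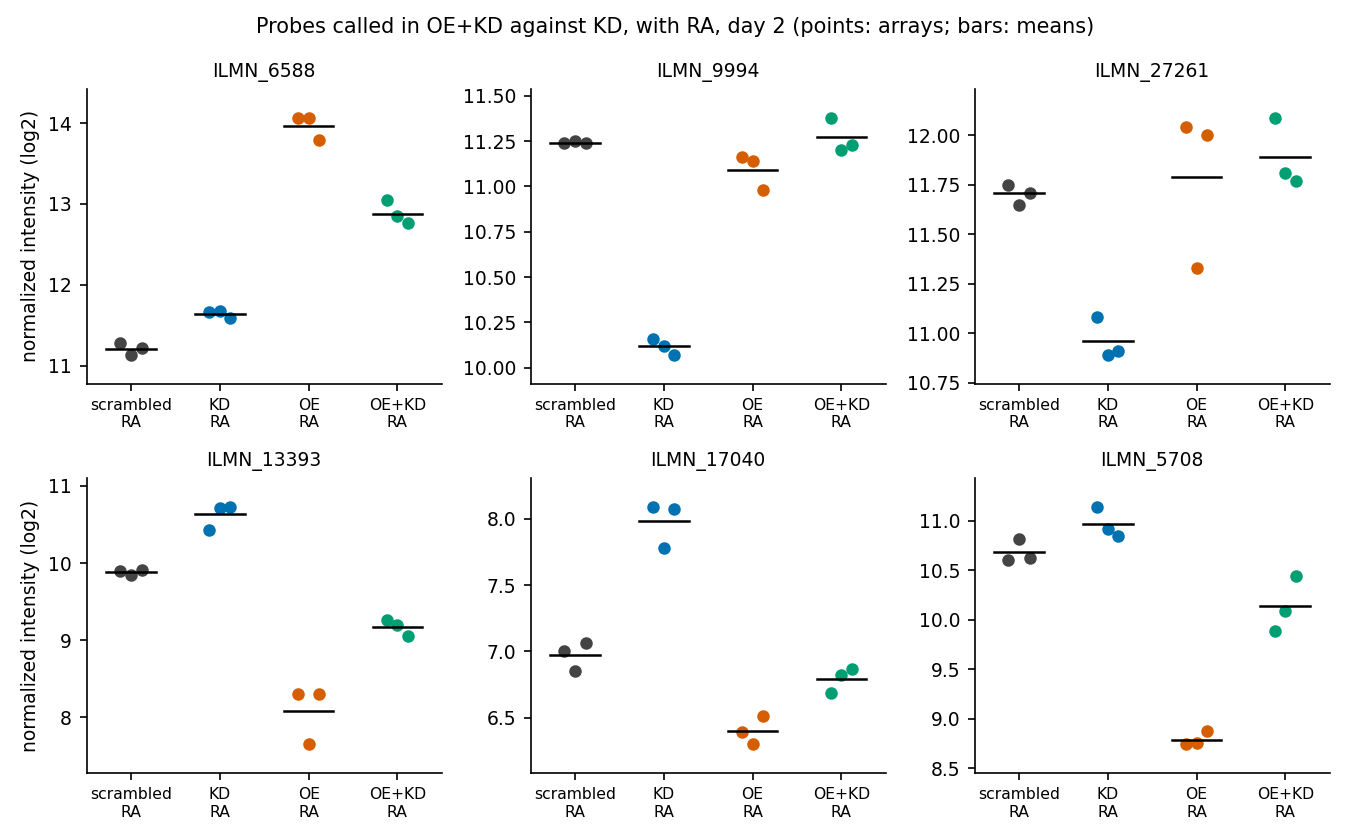
Normalized intensity (log2) of 6 probes called in OE+KD against KD, on each of the 3 arrays (points) of the scrambled, KD, OE and OE+KD groups with RA on day 2, with group means as bars and a separate axis for each probe. ILMN_6588 lies between its KD and OE levels in OE+KD at 12.88 log2, while ILMN_9994 and ILMN_27261 are low on the KD arrays and near their scrambled levels in OE+KD.

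Of the 10 raised probes with the largest changes and no overlap, with rises of 0.86 to 1.25 log2, 7 were also raised by OE alone with RA, 8 by OE alone without RA on day 2 and 6 on day 4, against 19.8%, 15.6% and 26.2% of all tested probes. For 5 of them the change on top of KD was smaller than that of OE alone with RA. Of the 10 lowered probes with the largest changes, with falls of 0.94 to 1.45 on the log2 scale, all 10 were also lowered by OE alone with RA, 8 by OE alone without RA on day 2 and 7 on day 4, against 19.8%, 15.8% and 25.3% of all tested probes. The change on top of KD was the smaller one for 4 of these. Both lists were chosen for a large change on top of KD, which favours that side in these comparisons of size.

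The direction of the OE effect on top of KD was then set beside the OE effects without KD, measured on arrays that took no part in the comparison, although all tests use the spread estimated from the 24 arrays. OE alone with RA raised 2122 (19.8%) and lowered 2121 (19.8%) probes, together 39.7% of those tested. Of the 944 probes called on top of KD, 700 were called there too, which is 74.2% of the former and 16.5% of the latter, and 661 of the 700 (94.4%) had the same direction. At 499 of these 661 the change was smaller on top of KD. For OE without RA on day 2, where 31.4% of tested probes were called, 657 probes were shared, 69.6% and 19.6% of the respective lists, and 625 (95.1%) had the same direction. On day 4 without RA (51.5% called, 26.2% higher and 25.3% lower), 709 were shared, 75.1% and 12.9% of the lists, and 658 (92.8%) had the same direction. Over the 10691 probes r with the effect of OE alone was 0.527 with RA, 0.554 without RA on day 2 and 0.425 without RA on day 4. These values describe probes, which are not independent replicates. The SD of the effect over all tested probes was 0.20 log2 on top of KD and 0.37 for OE alone with RA.

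Probes raised or lowered by OE without RA on day 2 gave a set chosen on arrays of neither RA comparison. The 1665 raised probes (15.6% of those tested) had a median change of 0.12 log2 on top of KD, with quartiles of 0.01 and 0.22, and 0.41 for OE alone with RA. The median of all tested probes was 0.01 log2. On top of KD 199 of the raised probes were called higher (12%) and 21 lower (1.26%), against 3.59% and 5.24% of all tested probes. The 1692 lowered probes (15.8%) had a median of -0.18 log2 on top of KD, with quartiles of -0.32 and -0.05, and -0.45 for OE alone with RA. Of these 426 were called lower (25.2%) and 11 higher (0.650%). Each OE+KD array gave nearly the same median when set against the mean of the KD arrays, 0.10 to 0.12 log2 in the raised set and -0.18 to -0.17 in the lowered set. With median scaling the medians were 0.07 and -0.21, and without background correction 0.14 and -0.22.

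**Figure D2:**
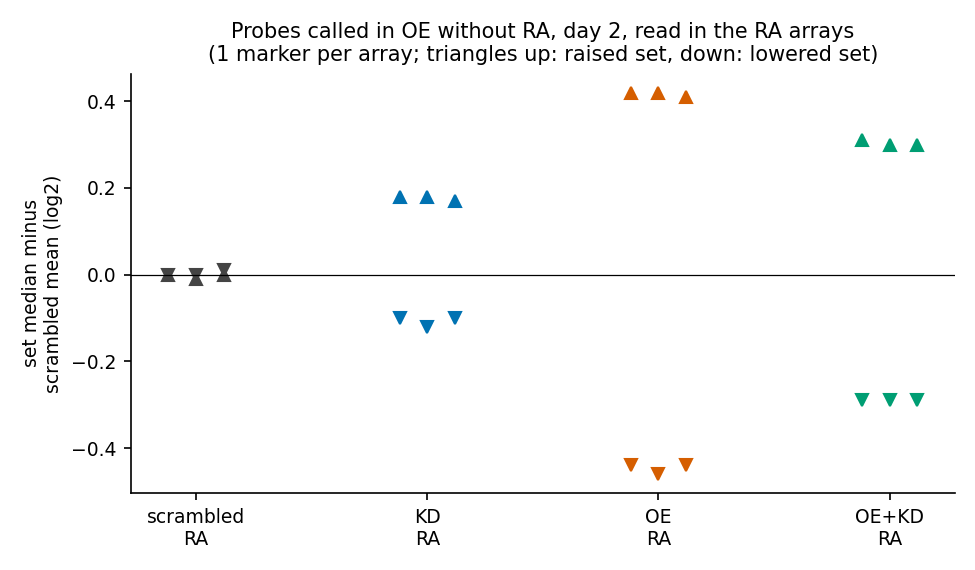
Median over the 1665 probes raised (triangles up) and the 1692 probes lowered (triangles down) by OE without RA on day 2, on each array of the 4 RA groups, as the log2 difference from the mean of the scrambled arrays with RA. The raised set stands at 0.17 to 0.18 on the KD arrays, 0.30 to 0.31 on the OE+KD arrays and 0.41 to 0.42 on the OE arrays, and the lowered set at -0.12 to -0.10, -0.29 and -0.46 to -0.44.

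A narrower set held the probes called in the same direction in all 3 OE comparisons without KD. The 1027 raised ones had a median of 0.13 log2 on top of KD, and 809 of them (78.8%) lay above 0, while 160 were called higher (15.6%) and 11 lower (1.07%). For the 1098 lowered ones the median was -0.22, and 969 (88.3%) lay below 0, with 355 called lower (32.3%) and 5 higher (0.455%). Among all tested probes 52.7% lay above 0. With other scaling, background or normalization the median ran from 0.09 to 0.16 for the raised ones and from -0.26 to -0.23 for the lowered ones. In both kinds of set the lowered probes were thus called on top of KD at a higher share than the raised ones, a contrast for which no test was run. All tested probes leaned the same way, with 5.24% called lower and 3.59% called higher. With median scaling that lean was larger, with 25.7% of all calls higher.

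The OE effect with KD was tested against the OE effect without KD, both with RA, as the interaction of the 2 treatments, which is also the KD effect with OE minus that without. The difference was called at 1417 probes (limma, 13.3% of those tested), 683 positive (6.39%) and 734 negative (6.87%). By construction most of them had a large effect on 1 side: 738 had the same direction and a smaller OE effect with KD, 28 the same direction and a larger one, and 651 opposite directions. These directions are those of the sign alone. On top of KD the median OE effect was -0.04 log2 at the positive and -0.01 at the negative differences. OE was called on top of KD at 273 of the 1417 probes, so most opposite directions rest on effects not called there. At 1103 of the 1417 probes OE was called without KD only, at 68 with KD only, at 166 on both sides in the same direction and at 39 on both sides in opposite directions. Over all 10691 tested probes OE was called at 39.7% without KD and at 8.83% with KD, so calls without KD were the more frequent there too. Among them 244 were called with KD only, 661 on both sides in the same direction and 39 in opposite directions. Arrays without RA gave no group mean to this difference, although they entered the shared estimate of the spread. In them, on day 2, the OE effect was of the opposite sign to the difference at 93.0% of the positive and 93.7% of the negative probes, with medians of -0.44 and 0.44 log2. Read the other way, of the 1665 probes raised by OE without RA on day 2 the difference was negative and called at 558 (33.5%) and positive and called at 4 (0.240%). Of the 1692 lowered probes it was positive at 497 (29.4%) and negative at 11 (0.650%). With median scaling 891 differences were called, of which 33.7% were positive in place of 48.2%. Fitting only these 4 groups gave a count of 774, and it was 1355 without replicate 2 of OE.

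**Figure D3:**
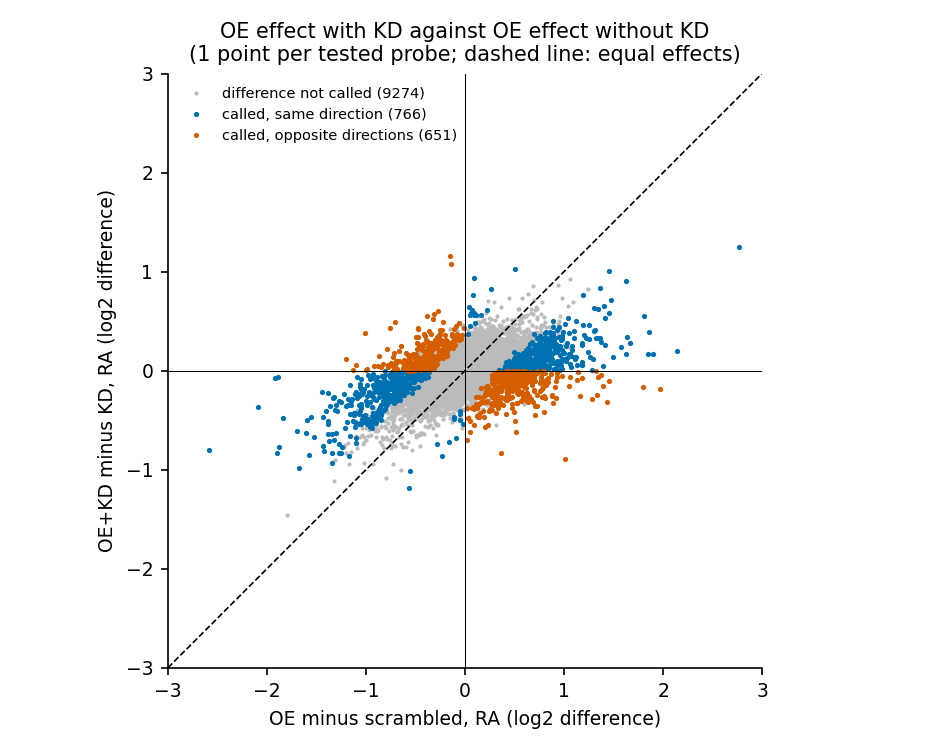
The OE effect on top of KD (OE+KD minus KD, vertical axis) against the OE effect without KD (OE minus scrambled, horizontal axis), both with RA on day 2 in log2 units, 1 point per tested probe, with the dashed line where both are equal. The 1417 probes with a called difference lie off the line by choice, 766 of them with 1 direction on both sides (blue) and 651 with opposite directions (orange), and the cloud is flatter than the line, with an SD of 0.20 log2 on the vertical and 0.37 on the horizontal axis. Colours go by the sign alone, and 39 probes were called on both sides in opposite directions.

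The largest negative differences belonged to probes that KD and OE each held at a raised level. They were selected for the size of the difference, so their levels are a description. ILMN_12713 stood at 11.50, 11.64 and 11.56 log2 on the scrambled arrays, at 13.27, 13.33 and 13.50 with KD, at 13.52, 13.42 and 13.65 with OE and at 13.16, 13.20 and 13.17 with OE+KD. All 9 arrays with a miR-125b reagent lay above the scrambled arrays. Every OE+KD array lay below every KD and every OE array. OE+KD minus KD was -0.19 log2 (95% interval -0.36 to -0.02, limma adjusted p = 0.162), against 1.96 for OE alone, and the difference was -2.15 (limma adjusted p = 3.52e-12). OE+KD minus OE was -0.35 log2 (limma adjusted p = 0.0042).

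ILMN_28633 had a like profile, at 8.67, 8.68 and 8.59 log2 in scrambled, 10.14, 9.93 and 10.41 in KD, 10.11, 10.84 and 10.40 in OE and 9.96, 10 and 10.03 in OE+KD. Its KD arrays overlapped both the OE and the OE+KD arrays. OE on top of KD gave -0.17 log2 (95% interval -0.42 to 0.08, limma adjusted p = 0.453) and OE alone 1.80. OE+KD minus OE was -0.45 log2 without overlap of the arrays (limma adjusted p = 0.0116). ILMN_22953, second among the probes raised by OE alone with RA, stood at 9.34, 9.34 and 9.09 log2 in KD and at 9.49, 9.39 and 9.48 in OE+KD, against 7.45 to 7.68 in scrambled. Every OE+KD array lay just above the KD arrays. The OE effect on top of KD was 0.20 log2 (95% interval -0.06 to 0.46, limma adjusted p = 0.376), and it was 2.14 for OE alone.

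The largest positive differences belonged to probes lowered by OE alone. ILMN_23980 stood at 12.32, 11.96 and 12.06 log2 in scrambled, 11.36, 11.60 and 11.22 in KD, 10.31, 9.98 and 10.30 in OE and 11.45, 11.23 and 11.29 in OE+KD. The KD and OE+KD arrays overlapped, between the scrambled and the OE arrays. OE on top of KD gave -0.07 log2 (95% interval -0.31 to 0.17, limma adjusted p = 0.789) and OE alone -1.92, a difference of 1.85 (limma adjusted p = 3.55e-08). This probe responded to RA, at 5.79 log2 in scrambled cells (limma adjusted p = 6.41e-23), and lay near the low end without RA.

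ILMN_16738 stood at 10.26, 10.31 and 10.37 log2 in scrambled, 9.08, 9.12 and 9.36 in KD, 8.43, 8.41 and 8.45 in OE and 9.11, 9.12 and 9.14 in OE+KD. The KD and OE+KD arrays again overlapped. OE on top of KD was -0.06 log2 (95% interval -0.29 to 0.17) and OE alone -1.89. ILMN_9057 also belonged to the probes lowered most by OE alone with RA. It stood at 12.22, 12.42 and 12.25 in KD and at 11.91, 12.01 and 11.88 in OE+KD, where every OE+KD array lay below every KD array, but the change of -0.36 log2 was not called (95% interval -0.65 to -0.07, limma adjusted p = 0.113). It was called when replicate 2 of OE with RA was left out of the shared estimate of the spread (limma adjusted p = 0.0178), with array weights (0.0221) and when only the KD and OE+KD arrays were fitted (0.0252).

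ILMN_12727 showed a further course. It stood at 11.57, 11.69 and 11.63 log2 in scrambled, 11.55, 11.71 and 11.61 in KD, 10.73, 10.34 and 10.42 in OE and 11.71, 11.68 and 11.48 in OE+KD. Only the OE arrays stood apart among the 4 groups. The OE effect was 0.00 log2 on top of KD (95% interval -0.23 to 0.24, limma adjusted p = 0.991) and -1.14 without KD, and the difference was 1.14 (limma adjusted p = 2.45e-05). At this probe OE had lowered the level by 1.37 log2 without RA on day 2 (OE minus scrambled -1.37, limma adjusted p = 1.05e-09).

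**Figure D4:**
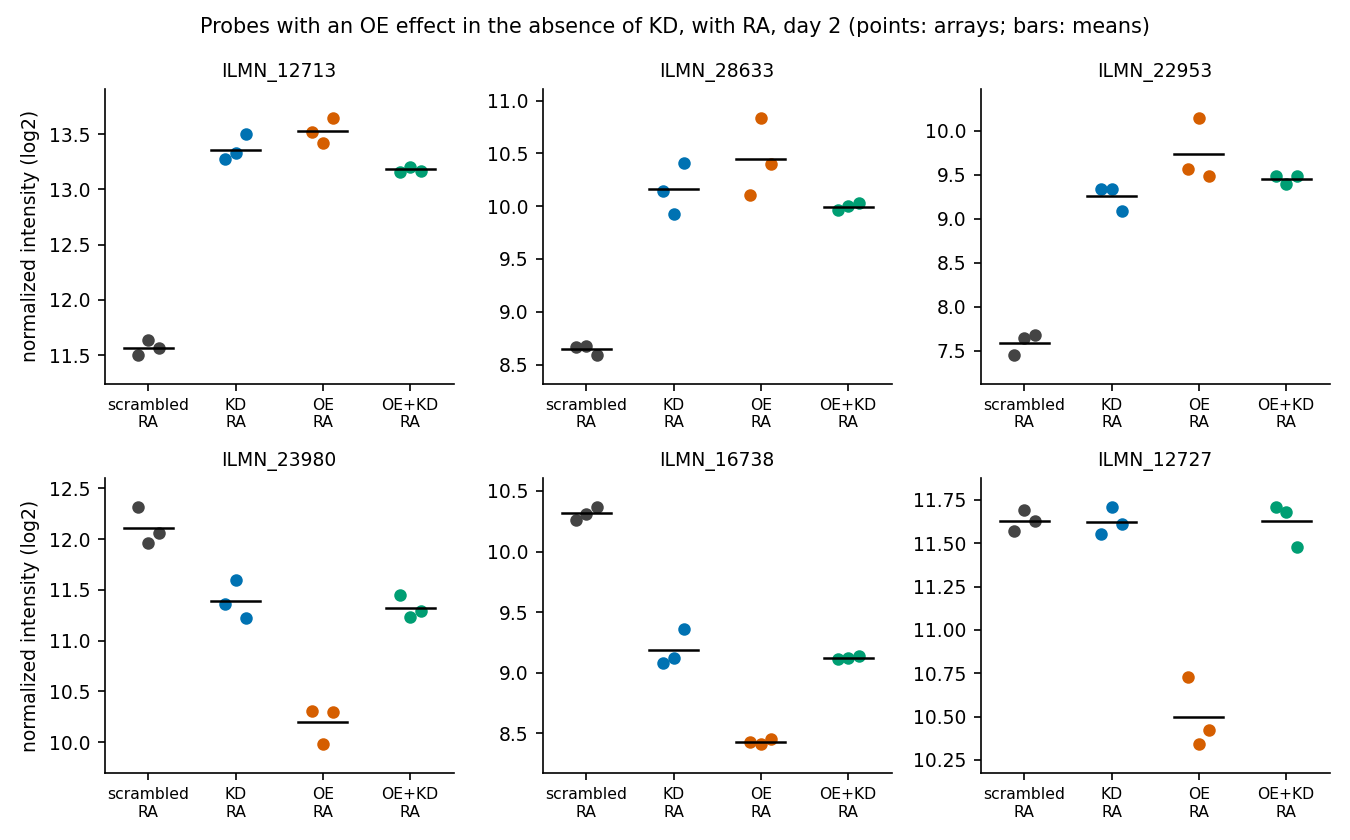
Normalized intensity (log2) of 6 probes changed by OE alone, on each of the 3 arrays (points) of the scrambled, KD, OE and OE+KD groups with RA on day 2, with group means as bars and a separate axis for each probe. ILMN_12713, ILMN_28633 and ILMN_22953 are raised in KD, OE and OE+KD, ILMN_23980 and ILMN_16738 lie between scrambled and OE in both KD and OE+KD, and ILMN_12727 is low on the OE arrays. At ILMN_12713 and ILMN_28633 every OE+KD array lies below every OE array.

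The OE effect on top of KD with RA was also tested against the OE effect with neither KD nor RA on day 2. RA and KD change together in this contrast and cannot be told apart. The difference was called at 899 probes (limma, 8.41% of those tested), 432 positive (4.04%) and 467 negative (4.37%). OE and scrambled arrays with RA gave no group mean to it, although they entered the shared estimate of the spread. Of the 2122 probes that OE raised there, the difference was negative and called at 400 (18.9%) and positive at 10 (0.471%), and of the 2121 lowered probes it was positive at 338 (15.9%) and negative at 10 (0.471%). The count was 1711 with array weights.

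ILMN_13364 had the largest negative difference of this kind. It stood at 6.61, 6.75 and 6.44 log2 on the KD arrays and at 6.94, 7.14 and 6.60 on the OE+KD arrays, near the low end, and the groups overlapped. OE on top of KD gave 0.29 log2 (95% interval 0.06 to 0.52, limma adjusted p = 0.111), against 2.03 without RA on day 2, a difference of -1.74 (limma adjusted p = 7.41e-08). Without background correction the first of these was 1.02 log2, and it was called without replicate 3 of OE+KD (0.43 log2, limma adjusted p = 0.0138), with array weights (0.0406) and with the replicate number as a block (0.0472). ILMN_4343 stood at 9.29, 9.27 and 9.43 in KD and at 9.53, 9.62 and 9.34 in OE+KD, which overlapped, and at 7.81 to 7.90 in scrambled with RA. OE on top of KD was 0.17 log2 (limma adjusted p = 0.357), against 1.88 without RA on day 2. On the positive side ILMN_21370, given above, led with a difference of 1.44 (limma adjusted p = 3.61e-08) and ILMN_12727 followed with 1.38 (limma adjusted p = 2.61e-06).

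RA-responsive probes were read last, through the RA effect in scrambled cells on day 2, which shares no array with OE+KD against KD and in which 19.4% of tested probes were called. The 995 probes raised by RA (9.31% of those tested) had a median OE effect on top of KD of -0.01 log2, and 53 were called higher (5.33%) and 84 lower (8.44%). The 1079 probes lowered by RA (10.1%) had a median of -0.01 too, and 60 were called higher (5.56%) and 101 lower (9.36%). All 4 shares lay above those of all tested probes, 3.59% higher and 5.24% lower, a contrast for which no test was run. Both kinds of call used the same estimate of the spread of each probe, so they are not independent. Across all tested probes the effect and the RA effect correlated with r = -0.0223.

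ILMN_28662 rose most with RA, by 7.67 log2 in scrambled cells from near the low end. Under RA it stood at 14.12, 14.07 and 14.03 in scrambled, 13.86, 13.80 and 13.86 in KD, 12.34, 12.06 and 12.31 in OE and 13.48, 13.29 and 13.31 in OE+KD. Every OE+KD array lay below every KD array and above every OE array. The change on top of KD was -0.48 log2 (SE 0.124, limma adjusted p = 0.0137), and the OE effect differed with and without KD by 1.36 (95% interval 1 to 1.72, limma adjusted p = 8.12e-06). The change kept its size but was not called with no background correction (limma adjusted p = 0.804), with a smaller normexp offset (0.102), in the authors' normalized intensities (0.0813), without replicate 2 of OE+KD (0.0601) or without replicate 3 of KD (0.0528).

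ILMN_27300 stood at 12.78, 12.67 and 12.85 log2 in KD and at 12.58, 12.59 and 12.46 in OE+KD, without overlap, and its change of -0.22 was not called (95% interval -0.41 to -0.02, limma adjusted p = 0.163). With OE alone it fell by 1.45 on the log2 scale. Of the probes lowered most by RA, ILMN_3487 stood at 7.14, 7.19 and 7.37 in KD and at 7.54, 7.92 and 7.76 in OE+KD, a rise of 0.50 log2 (SE 0.108, limma adjusted p = 0.00310), which was 0.88 without background correction and 0.94 in the authors' normalized intensities. OE alone raised it by 0.95, and the difference of -0.45 was not called (limma adjusted p = 0.0518). ILMN_23892 stood at 7.41, 7.38 and 7.15 in KD and at 7.72, 7.42 and 7.55 in OE+KD, a change of 0.25 log2 that was not called (95% interval 0.01 to 0.49, limma adjusted p = 0.202). OE alone lowered it (-0.64 log2), and the OE effects with and without KD differed by 0.89 (limma adjusted p = 0.000569).

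**Figure D5:**
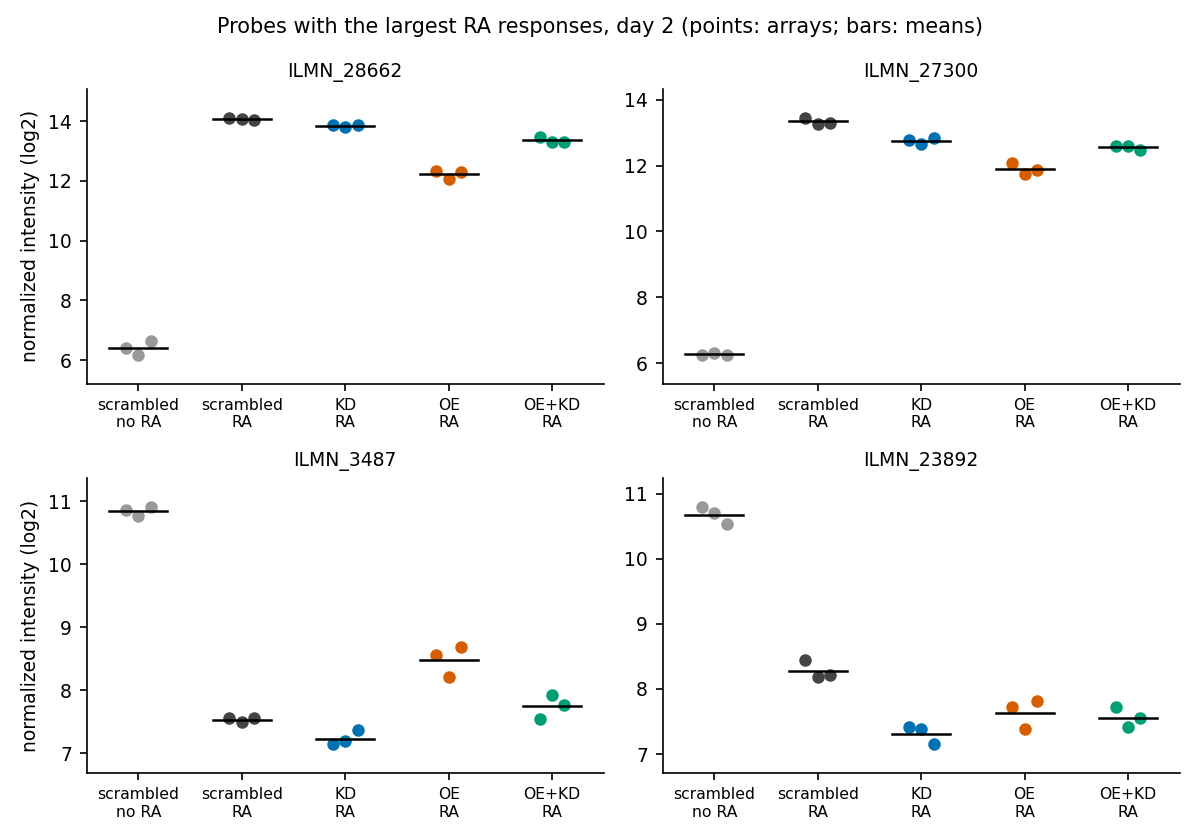
Normalized intensity (log2) of the 2 probes that rose and the 2 that fell most with RA in scrambled cells, on each of the 3 arrays (points) of scrambled cells without RA and of scrambled, KD, OE and OE+KD cells with RA, day 2, with group means as bars and a separate axis for each probe. The 4 RA groups of ILMN_28662 lie between 12.06 and 14.12 log2, far above the arrays without RA at 6.17 to 6.64, with OE lowest and OE+KD between OE and KD.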

How the data were processed

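The deposited scanner table gives 1 linear intensity per probe and array, and it holds negative values, so it was not raw. The deposited series matrix gives intensity values normalized by the authors, with none under 20. Deposited log2 fold changes come in a separate table, log2 per the file headers. The sources used here do not name the array version, the scanner software or the authors' methods.

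Scanner values were background-corrected again (normexp, offset 50, which compresses the changes of dim probes), quantile normalized and log2 transformed with limma 3.58.1 in R 4.3.3. Probes above their array's median on all 3 arrays of at least 1 group were tested, 10691 of 20589 (51.9%). One model with 8 group means was fitted to the 24 arrays (lmFit and eBayes, 16 residual degrees of freedom). Adjusted p-values are Benjamini-Hochberg values over all tested probes, called under 0.05. Sets and arrays were described with pandas 2.3.3 and NumPy 2.4.6 (Python 3.11.15) and plotted with matplotlib 3.10.9.

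Named probes are the first 2 in each direction by size of change in each comparison, called and without overlap between arrays (overlap not asked for the 2 differences), plus ILMN_27261. Comparisons and lists were chosen with earlier results of these data known. Without gene names the planned gene lists were not run. On simulated data for OE+KD against KD with 20589 probes, the test called 77% of probes changed by 0.5 log2 and 95% of those changed by 1 log2, and 9 of 181 calls were false. The simulation drew independent errors around a common mean for all groups and changed probes in OE+KD only. Whether these rates hold for the real arrays was not tested. Alternatives covered scaling, background, filter, block, weights and left-out arrays.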

Additional observations from a re-analysis of the deposited data

Results flagged for a closer look

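An effect differed between groups in 2 cases where the difference was tested. The OE effect with KD differed from the OE effect without KD, both with RA, at 1417 probes (limma, adjusted p under 0.05). The OE effect with KD and RA differed from the OE effect with neither on day 2 at 899 probes. Groups of 3 arrays were not tested for single arrays that stand apart.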

How the results depend on the processing

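The direction of the 9 named probes called in OE+KD against KD was kept in all 143 recomputed values, and the call in 138, the exceptions being the 5 given for ILMN_28662. Of 40 recomputed set medians none turned sign. Only 9 stayed within the SD between the medians of the single OE+KD arrays, and 31 moved beyond it. The count of 944 was 537 with median scaling, 577 to 825 with 1 array left out and 1397 with the replicate block. The count of 1417 was 891 with median scaling, 774 with only the groups compared, 1053 to 1833 with 1 array left out and 2044 with the replicate block. The count of 899 was 1711 with array weights, 704 to 812 with 1 array left out and 1296 with the replicate block. The replicate numbers were not taken as pairs: same-numbered KD and OE+KD arrays deviated together with r of 0.079 to 0.218, although all 6 arrays correlated best with their own number. Over the groups behind the count of 1417, r was -0.082 to 0.42, with 13 of 18 same-numbered pairs over 0.1, and over those behind the count of 899 it was 0.079 to 0.438, with 16 of 18 over 0.1. Every same-numbered pair of scrambled and OE arrays of day 2 was over 0.1, with and without RA. In every group replicate 3 had the largest share of negative scanner values and replicate 2 the smallest. By replicate number these shares were 15.4%, 15% and 17% for KD and 16%, 14.9% and 17.5% for OE+KD. What the replicate number stands for was not tested, and the main tests do not model it. Changes near 0 turned sign without being called: with 1 array left out ILMN_23980 ran from -0.16 to 0.03, ILMN_16738 from -0.12 to 0.02 and ILMN_12727 from -0.04 to 0.07, and ILMN_12727 was -0.03 with median scaling. ILMN_17040 could not be tested with the stricter filter. The cause of these shifts was not tested. The fit without replicate 2 of OE with RA was added after the data were seen.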

Other observations

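The authors' deposited table of fold changes has a column for KD with RA and a column for OE and KD with RA, both headed as against the scrambled control without RA. Across the 20589 probes the KD column of the authors' deposited table correlated with the log2 ratio of the authors' normalized intensities at r = 0.958 when the scrambled group with RA was the reference and at r = 0.524 when the group without RA was. For the OE and KD column of the authors' deposited table these values were 0.967 and 0.561. The largest gap to the column of a single probe was 0.50 log2 for KD and 0.62 for OE and KD with the RA reference, and 9.39 and 9.41 with the other. The values of both columns thus follow the scrambled group with RA, not the group without RA that their headers name. The reference cancels in the difference of the 2 columns, which correlated with OE+KD minus KD at r = 0.883 across the 10691 tested probes. In the authors' deposited table ILMN_6588 stood at 0.46 in the KD column and at 1.75 in the OE and KD column, and ILMN_13393 at 0.74 and -0.77.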
